A study of Mus musculus with 4 samples.

Results

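The 5 Ikaros family genes, Ikzf1 to Ikzf5, encode zinc finger transcription factors of blood cells, and all 5 were found among the 21887 mouse protein-coding genes measured. They were taken by name as a gene family, and not by any value of the peak lists. H3K79me2 is dimethylation of histone H3 at lysine 79, and chromatin immunoprecipitation sequencing (ChIP-seq) mapped it in double-negative thymocytes of C57BL/6 mice. Cells given A939572, which inhibits the stearoyl-CoA desaturase SCD1, are called inhibitor, and cells given the vehicle DMSO are called control. In both conditions haematopoietic stem cells were grown into the DN3 stage on OP9-DL1 stromal cells, which carry a Notch ligand, with Flt-3L and IL-7. Each condition had 1 ChIP library, so no value has a replicate error, no difference between conditions has a replicate check, and no p-value is given. The inputs, 1 per condition, were not analysed here. The dose, the length of treatment and the number of mice or cultures behind a library were not given in the sources used here.

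Ikaros proteins bind DNA through zinc fingers near one end of the protein and pair with each other through fingers near the other end. Ikaros (Ikzf1), Helios (Ikzf2) and Aiolos (Ikzf3) join the nucleosome remodelling and deacetylase complex NuRD in lymphocytes. Ikaros is needed for lymphoid development, and its loss in mouse thymocytes leads to T cell leukaemia. Helios and Eos (Ikzf4) are best known in regulatory T cells, Aiolos in B cells and maturing lymphocytes, and Pegasus (Ikzf5) is the most divergent relative and is expressed in many tissues. H3K79me2 is laid down by the methyltransferase DOT1L on transcribed genes, mostly over their 5′ part, and it often reaches far into long genes.

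The sequence around the annotated start bears on these data because peaks covered it or left it bare. The RefSeq promoter table (GRCm38.p6, the assembly of mm10) matched 2 of the 5 genes. It held 2 starts of Ikzf1 on the plus strand (chr11:11685675-11685974 and chr11:11689927-11690226) and 1 start of Ikzf5 on the minus strand (chr7:131410429-131410728). Ikzf2, Ikzf3 and Ikzf4 had no entry. Each window runs 5′ to 3′ from 250 bases before the start to 50 bases from it onward. Capitals mark GGGAA, the core of the sequence that Ikaros itself binds, on either strand, so that TTCCC is its reverse complement.
Ikzf1 start 1: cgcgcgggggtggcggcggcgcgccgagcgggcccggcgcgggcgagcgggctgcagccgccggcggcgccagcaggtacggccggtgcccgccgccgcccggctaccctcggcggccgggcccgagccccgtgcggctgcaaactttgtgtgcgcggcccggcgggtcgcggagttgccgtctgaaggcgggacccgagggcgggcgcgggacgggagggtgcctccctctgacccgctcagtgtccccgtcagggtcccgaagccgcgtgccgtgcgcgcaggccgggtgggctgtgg
Ikzf1 start 2: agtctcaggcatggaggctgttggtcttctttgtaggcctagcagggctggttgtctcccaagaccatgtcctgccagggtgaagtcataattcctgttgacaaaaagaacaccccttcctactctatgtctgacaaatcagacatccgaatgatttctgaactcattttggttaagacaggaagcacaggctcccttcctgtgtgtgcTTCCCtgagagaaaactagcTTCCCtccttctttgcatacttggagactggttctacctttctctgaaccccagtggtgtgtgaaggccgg
Ikzf5 start: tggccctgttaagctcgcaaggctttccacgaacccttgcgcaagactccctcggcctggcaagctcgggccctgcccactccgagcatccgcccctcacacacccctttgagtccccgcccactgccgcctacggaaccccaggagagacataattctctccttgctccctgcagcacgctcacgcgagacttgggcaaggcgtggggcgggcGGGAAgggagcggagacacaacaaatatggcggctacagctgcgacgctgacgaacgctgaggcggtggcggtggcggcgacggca

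The windows differed in composition. The first Ikzf1 window held 52 CG dinucleotides in 300 bases and was 81.3% G or C, and 0.705% of the 21263 promoter windows of coding genes held as many. The second held 2 CG dinucleotides and was 49.0% G or C. The Ikzf5 window held 27 and was 65.7% G or C, against medians of 13 CG dinucleotides and 56.3% over all windows. GGGAA was found 0 times in the first Ikzf1 window, 2 times in the second on the reverse strand, and 1 time in the Ikzf5 window. Either strand of this motif occurs in 63.0% of all windows, so a match is a description of the letters only. In the inhibitor list, peaks covered all 300 bases of each of the 3 windows. In the control list they covered both Ikzf1 windows and no base of the Ikzf5 window.

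Peaks were called by the authors separately for each library, and a gene's level is the percent of its body, from RefSeq start to end, that peaks cover. Fold enrichment and −log10 q are the authors' values, means over a peak, and describe peaks within their own list. The inhibitor list held 35018 peaks and the control list 124962, and 18.6% of inhibitor peaks (95% Wilson interval 18.2 to 19.1) against 0.643% of control peaks (0.601 to 0.689) had q up to 0.05. The covered lengths of all peaks were 234 Mb in inhibitor cells and 235 Mb in control cells, and those of peaks at q up to 0.05 were 153 Mb in inhibitor and 11.1 Mb in control cells. The number of reads is unknown, so the part that depth or ChIP efficiency has in any difference given here was not tested. A smaller share of marked cells and less mark per cell cannot be told apart in such bulk samples.

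Marker genes of T cells and of other cells were read in the same way, where 26.1% of all coding genes in inhibitor cells and 5.47% in control cells were covered over at least 50%. Of 13 T lineage and DN3 marker genes, 12 in inhibitor cells and 8 in control cells were so covered. Of 6 B cell markers 0 were so covered in either list. They ranged from 0 to 16.4% in inhibitor cells, highest at Cd79b, and from 0 to 10.7% in control cells, highest at Ms4a1. Of 7 markers of the OP9 feeder, 1 in inhibitor cells and 0 in control cells reached 50%, and 2 were at least 25 points higher in inhibitor cells. These were Thbs1, at 59.0% in inhibitor and 11.8% in control cells, and Pdgfrb, at 45.3% in inhibitor and 9.18% in control cells, each with an inhibitor peak at q up to 0.05. Of the other 5 feeder markers, Pdgfra, Col1a1, Col3a1 and Cxcl12 were free of peaks in both lists and Col1a2 was at 0% in inhibitor and 1.09% in control cells. Of 6 myeloid markers, Cd68 alone reached 50%, at 100% in inhibitor and 0% in control cells. Of 6 innate lymphoid and killer cell markers, Zbtb16 alone reached it, at 84.7% in inhibitor and 19.2% in control cells. A pair of that list was at least 25 points higher in control cells, which 3.07% of all coding genes were. These were Klrb1c, at 0% in inhibitor and 40.2% in control cells, and Klrd1, at 0% in inhibitor and 35.1% in control cells, without a peak at q up to 0.05. The part of other cells in the results below was not tested.

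Coverage differed widely among the 5 Ikaros family genes. In the inhibitor list the order was Ikzf1 at 100%, Ikzf2 at 92.7%, Ikzf5 at 72.1%, Ikzf4 at 24.2% and Ikzf3 at 0%. In the control list it was Ikzf1 and Ikzf2 at 77.4% each, Ikzf3 at 12.3%, Ikzf5 at 11.8% and Ikzf4 at 2.23%. With 1 library per condition there is no spread by which neighbours in these orders could be told apart. Ikzf5 and Ikzf4 stood below Ikzf3 in the control list, Ikzf5 only just, and above it in the inhibitor list. Ikzf3 was the member with less coverage in inhibitor cells. The median of the 5 genes was 72.1% in inhibitor cells and 12.3% in control cells, against 0.446% in inhibitor and 2.24% in control cells over all coding genes, and 11.2% in inhibitor and 7.94% in control cells over the 8140 coding genes no shorter than Ikzf5 and no longer than Ikzf2. The family medians fall on different genes, Ikzf5 in inhibitor and Ikzf3 in control cells. The median of the differences per gene was 22.0 points, against 0 points over all coding genes and 3.40 points over those in the length range.

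**Figure D1:**
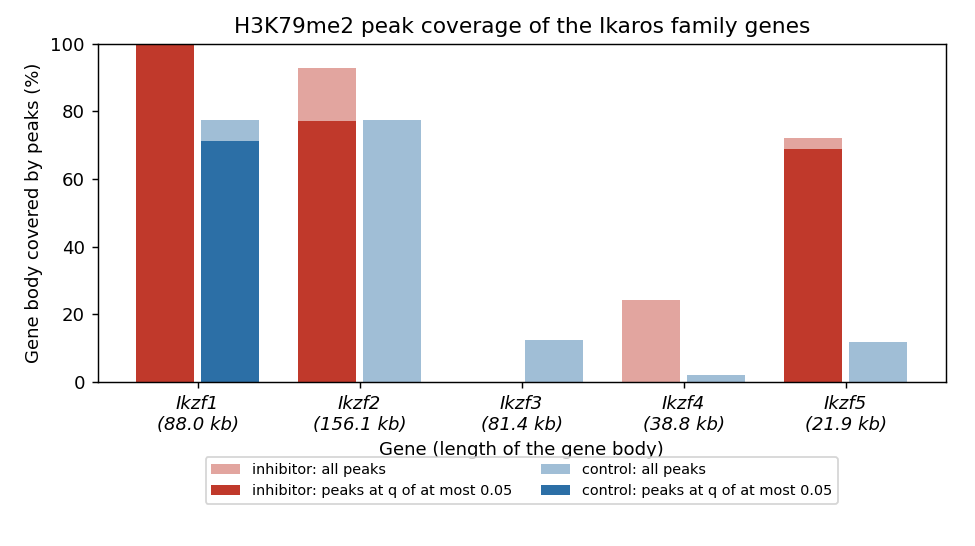
Percent of each gene body covered by H3K79me2 peaks in the inhibitor list (red) and the control list (blue), 1 library each. Pale bars count all peaks and dark bars only peaks at q up to 0.05; the dark control bar is present at Ikzf1 alone, at 71.1%, and Ikzf3 has no inhibitor bar.

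Coverage of at least 50% was reached by 3 of the 5 genes in inhibitor cells (Ikzf1, Ikzf2 and Ikzf5) and by 2 in control cells (Ikzf1 and Ikzf2). Over all coding genes 26.1% reached it in inhibitor cells and 5.47% in control cells, and over those in the length range of the family 29.9% in inhibitor and 5.54% in control cells. A difference of at least 25 percentage points in favour of the inhibitor list was seen at 1 of the 5 genes, Ikzf5, where 30.1% of all coding genes had one and 34.1% of those in the length range. It was seen in favour of the control list at 0 of the 5, against 3.07% of all coding genes. When only peaks at q up to 0.05 were kept, 3 members were covered over at least 50% in inhibitor cells and 1 in control cells, against 19.6% in inhibitor and 1.33% in control cells of all coding genes. The difference then reached 25 points at 3 members, Ikzf1, Ikzf2 and Ikzf5, against 26.3% of all coding genes. In favour of control cells it was then met by 0 of the 5 and by 0% of all coding genes. With peaks at −log10 q of at least 5 the difference in favour of inhibitor cells was reached by Ikzf1 and Ikzf2, against 13.2% of all coding genes. Peaks with a fold of at least 3 gave the same members, against 12.9%, and merging peaks within 5 kb gave Ikzf4 and Ikzf5, against 29.1%.

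**Figure D2:**
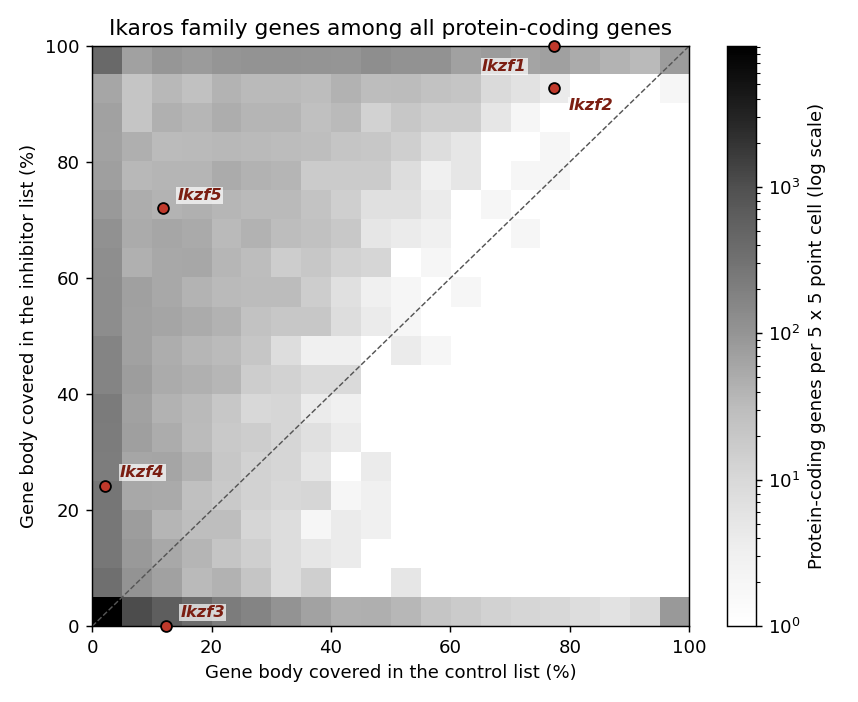
Covered percent of the gene body in the inhibitor list (vertical) and the control list (horizontal) for all protein-coding genes, counted in cells of 5 by 5 points on a log grey scale, with the 5 Ikaros family genes as red points and equal coverage as a dashed line. Ikzf1 and Ikzf2 lie at the right with 77.4% control coverage, Ikzf5 and Ikzf4 lie at the left above the line, and Ikzf3 lies on the horizontal axis.

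Ikzf1, the founding member (chr11:11684962-11772930, 88.0 kb), carried the strongest peak of the family in both lists. In inhibitor cells 1 peak of 99.9 kb (chr11:11678265-11778134) covered the whole gene body, as happened at 6.89% of all coding genes, with a fold of 5.28 and −log10 q 19.2. In control cells the gene held 5 peaks. The first, of 63.8 kb (chr11:11683705-11747521), had a fold of 3.23 and −log10 q 9.20 and covered 71.1% of the body. It was the only control peak at any member with q up to 0.05. Within its own list the inhibitor peak ranked 88th by q and 174th by width among 35018 peaks, and the control peak 94th by q and 23rd by width among 124962. A control peak at that q touched 3.92% of all coding genes, and an inhibitor peak at that q 34.7%.

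The difference at Ikzf1 lay at its 3′ part. The inhibitor peak began 7.66 kb before the first annotated start and ended 92.2 kb after it, which is 5.20 kb past the end of the gene body. The control peak began 2.22 kb before that start and ended 61.6 kb after it. Of 4 equal stretches from the 5′ end, inhibitor peaks covered 100% of each. Control peaks covered 100%, 100%, 89.9% and 19.7%. The other 4 control peaks lay beyond the wide one, spanned 399 to 3132 bp and had −log10 q of 0 to 0.128. All 68.1 kb covered in control cells was also covered in inhibitor cells, and 19.9 kb was covered in inhibitor cells alone. Over the first 5 kb from the start both lists covered 100%, where 37.3% of the 17492 coding genes with an annotated start reached 50% in inhibitor cells and 13.8% in control cells. The difference at Ikzf1 was thus 22.6 points over the body, 28.9 points for peaks at q up to 0.05 and 0 points at the start.

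Ikzf2, which encodes Helios (chr1:69531207-69687351, 156.1 kb), matched Ikzf1 in control coverage but not in the peaks behind it. In inhibitor cells 4 peaks touched it, and 1 of 123.2 kb (chr1:69567020-69690188) covered 77.1% of the body with a fold of 3.76 and a −log10 q of 7.27. The other 3 inhibitor peaks had −log10 q of 0.191, 0.277 and 0.701 and widths of 4.70 to 11.5 kb. In control cells 10 peaks touched it, with folds of 1.60 to 2.12 and −log10 q of 0 to 0.844, so none had q up to 0.05. The widest control peaks spanned 46.4, 28.5 and 17.3 kb and stood side by side at the higher-coordinate end, with gaps of 2.95 and 1.67 kb between them. The 46.4 kb peak was 53rd by width in its list and 1100th by q, so that width and q ranked it differently.

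Control coverage of Ikzf2 grew along the gene. Of 4 equal stretches from the lower-coordinate end, inhibitor peaks covered 70.7%, 100%, 100% and 100%. Control peaks covered 38.4%, 79.5%, 92.4% and 99.3%. The tables used give no strand for this gene, so its ends are named by coordinate. Of the 120.9 kb covered in control cells, 97.7% lay under inhibitor peaks, and of the 144.7 kb covered in inhibitor cells, 81.6% lay under control peaks. The difference was 15.3 points for all peaks and 77.1 points for peaks at q up to 0.05, where control cells had no such peak. Over the 5 kb at the lower-coordinate end it was 67.5 points, at 100% in inhibitor and 32.5% in control cells. The peaks at that end had −log10 q of 0.277 in inhibitor cells and of 0.00073 and 0 in control cells, so none had q up to 0.05. Over the 5 kb at the other end the difference was 5.18 points, at 100% in inhibitor and 94.8% in control cells. The flanking coding genes were distant. They were nearly bare in the inhibitor list and above the median of 2.24% over all coding genes in the control list. Erbb4, the nearest coding gene at lower coordinates, lay 422.6 kb away with 0.143% in inhibitor and 7.43% in control cells, and Spag16, at higher coordinates, 139.5 kb away with 0% in inhibitor and 3.70% in control cells. Beyond the gene the next inhibitor peak at higher coordinates was 1352 kb away, and the next control peak 2.13 kb away.

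**Figure D3:**
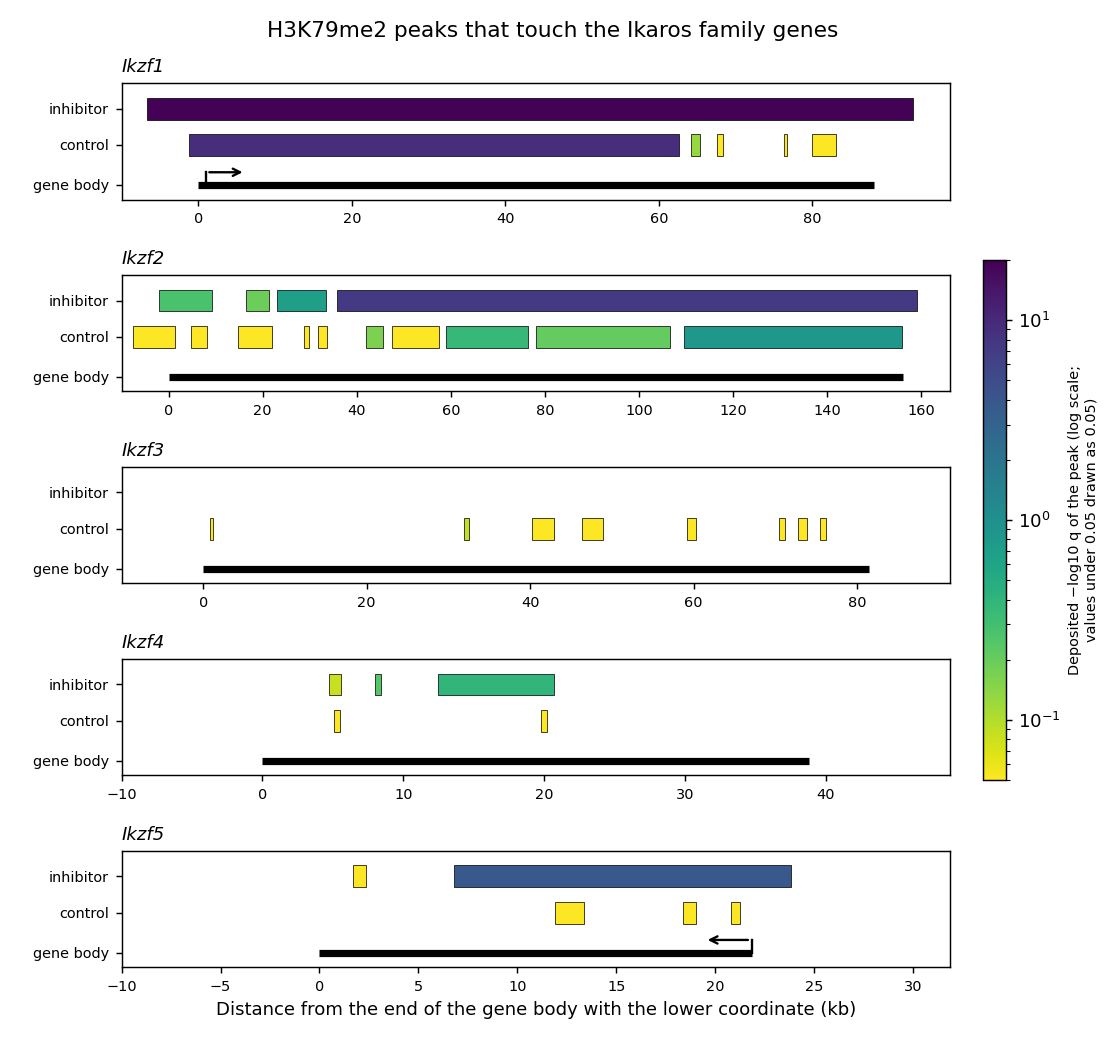
Peaks that touch each gene, drawn to scale against the distance from the lower-coordinate end of the gene body in kb (black bar), with the inhibitor list above the control list and each peak coloured by the authors' −log10 q on a log scale. Arrows mark the outermost annotated start where the tables give one. The dark control block of Ikzf1 ends inside the gene, Ikzf2 carries a chain of 10 pale control peaks, and Ikzf3 has 8 short control peaks and no inhibitor peak.

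Ikzf5, which encodes Pegasus (chr7:131388649-131410518, 21.9 kb, minus strand), had the largest difference among the 5 members when all peaks were counted, and Ikzf2 had the larger one at q up to 0.05. In inhibitor cells 2 peaks touched it. One of 17.0 kb (chr7:131395433-131412465) had a fold of 2.98 and a −log10 q of 3.82 and covered 69.0% of the body, and the other, of 688 bp near the 3′ end, had a −log10 q of 0. In control cells 3 peaks of 468 to 1448 bp had folds of 1.46 to 1.68 and −log10 q of 0 to 0.00876. Coverage was 72.1% in inhibitor cells and 11.8% in control cells, a difference of 60.3 points, and 69.0 points for peaks at q up to 0.05. All 2.59 kb covered in control cells lay under inhibitor peaks.

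The wide inhibitor peak at Ikzf5 lay over its 5′ part. It began 1.99 kb before the annotated start and ended 15.0 kb after it. The first 5 kb were covered over 100% in inhibitor cells and 22.7% in control cells, a difference of 77.3 points, where 33.4% of coding genes with an annotated start differed by at least 25 points in this direction. Acadsb, which encodes a mitochondrial acyl-CoA dehydrogenase, is transcribed from the other strand with its start 123 bp away, and 1.87 kb of the inhibitor peak lies in it. A peak over such a pair cannot be given to one gene at the start. Acadsb was covered over 12.7% in inhibitor and 1.83% in control cells by all peaks, and over 5.24% by the shared inhibitor peak. That peak covered 69.0% of Ikzf5, so it reached far into Ikzf5 and little into Acadsb. At the 3′ end Ikzf5 overlaps Pstk, a kinase gene of selenocysteine synthesis, which was covered over 25.1% in inhibitor and 3.23% in control cells and shares the 688 bp peak. No peak of either list at Ikzf5 reached a −log10 q of 5 or a fold of 3, so its difference was 0 points under those limits.

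Ikzf4, which encodes Eos (chr10:128630839-128669671, 38.8 kb), had weak peaks only. In inhibitor cells 3 peaks of 362, 837 and 8209 bp had folds of 1.60 to 1.75 and −log10 q of 0.0821 to 0.395. In control cells 2 peaks of 424 and 441 bp had folds of 1.46 and 1.54 and a −log10 q of 0. Coverage was 24.2% in inhibitor cells and 2.23% in control cells. The difference was 22.0 points, and the 8.21 kb inhibitor peak alone covered 21.1% of the body. Of 4 equal stretches, the second from the lower-coordinate end was covered over 71.6% in inhibitor cells and 0% in control cells. The 5 kb at the higher-coordinate end held no peak in either list, and those at the other end were covered over 4.86% in inhibitor and 0% in control cells.

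The neighbours of Ikzf4 differed from it. Rps26, a ribosomal protein gene 4.33 kb away, was covered over 100% in inhibitor and 71.6% in control cells, and its inhibitor peaks passed q of 0.05. No peak that touched Rps26 reached Ikzf4. Suox, the sulphite oxidase gene, 215 bp from the higher-coordinate end, was covered over 15.9% in inhibitor and 0% in control cells. These neighbours were picked by position after the peak lists had been seen.

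Ikzf3, which encodes Aiolos (chr11:98464610-98546031, 81.4 kb), held no inhibitor peak. In control cells 8 peaks of 397 to 2774 bp were scattered over the gene, with folds of 1.51 to 1.87. Their −log10 q reached 0.0858 and was 0 for 6 of them. They covered 12.3% of the body, and of 4 equal stretches from the lower-coordinate end 1.95%, 5.56%, 29.5% and 12.3%. The difference was −12.3 points, below the 25 points counted. A control peak together with no inhibitor peak was seen at 16.1% of all coding genes, and at 21.1% of those in the length range of the family. The nearest inhibitor peaks lay 63.4 and 37.5 kb away on either side, and the nearest control peaks 69.0 and 15.8 kb. The flanking coding genes Mien1 and Zpbp2, 6.38 and 5.07 kb away, held no peak in either list. Neither Ikzf3 nor Ikzf4 had a peak with q up to 0.05.

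**Figure D4:**
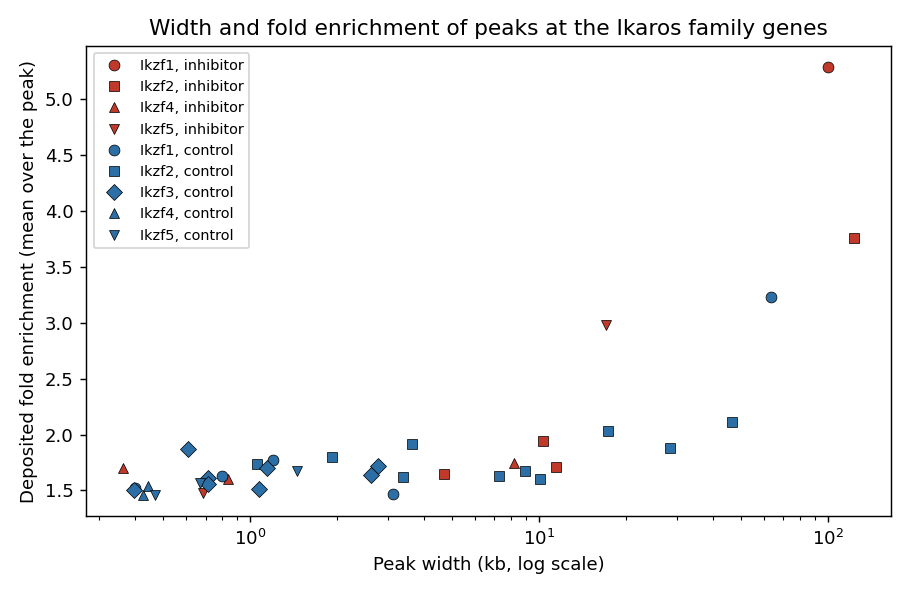
Width (kb, log scale) and the authors' fold enrichment of every peak that touches a member, with inhibitor peaks in red, control peaks in blue and a symbol for each gene. Within the inhibitor list the widest peaks, at Ikzf2 (123.2 kb), Ikzf1 (99.9 kb) and Ikzf5 (17.0 kb), also have the highest folds; within the control list the wide Ikzf1 peak stands at 3.23 and the Ikzf2 peaks at 2.12 or less.

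The members also differed in how they ranked when both lists were held to the same covered length. The strongest peaks by q were kept in each list up to the 11.1 Mb that control peaks cover at q up to 0.05, which left 244 inhibitor peaks and 804 control peaks. Ikzf1 was then covered over 100% in inhibitor cells and 71.1% in control cells, and the other 4 members over 0% in both. Under this limit 1.22% of all coding genes were covered over at least 50% in inhibitor cells and 1.33% in control cells. The difference of at least 25 points was met by Ikzf1 alone in favour of the inhibitor list, against 0.914% of all coding genes, and by 1.59% of all coding genes in favour of the control list.

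Genes with values like those of each member were looked for among genes of 0.5 to 2 times its length, by the Euclidean distance over 4 values, the covered percent in both lists for all peaks and for peaks at q up to 0.05. These 4 values come from 2 libraries, so likeness is a description. Nearest to Ikzf1 were Fam20a (distance 4.36 points) and Ppp2r5a (4.65), with 8 of 4340 genes within 10 points. Nearest to Ikzf2 were Ube3a (8.32), a ubiquitin ligase gene, and Tox (10.6), which encodes a regulator of T cell development, with 1 of 2697 genes within 10 points. Tox was covered over 91.7% in inhibitor and 66.9% in control cells, with no control peak at q up to 0.05. Ikzf5 was nearest to Slc7a6 (2.00) and Bag4 (2.28), with 101 of 7927 genes within 10 points, and Ikzf4 to Fbxo21 (0.553) and Aldh18a1 (0.652), with 230 of 6951. Ikzf3 was nearest to Smc1b (0.0317) and Lrrc9 (0.0563) and had 1089 of 4612 genes within 10 points, so few genes shared the pattern of Ikzf1 or Ikzf2 and many that of Ikzf3. Trps1, a gene outside the family whose protein ends in Ikaros-type fingers, was covered over 74.8% in inhibitor and 51.8% in control cells, and over 25.8% in inhibitor and 0% in control cells by peaks at q up to 0.05.

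Partners of Ikaros proteins were covered more in inhibitor cells almost throughout. Of 13 NuRD genes, 11 were covered over at least 50% in inhibitor cells and 3 in control cells (26.1% and 5.47% of all coding genes were), and 13 were at least 25 points higher in inhibitor cells (30.1% of all coding genes were). Chd4, the remodelling ATPase bound by Ikaros, was covered over 88.4% in inhibitor and 12.4% in control cells. Hdac1, a deacetylase, was covered over 100% in inhibitor and 28.1% in control cells, and Mta3, a scaffold subunit, over 90.5% in inhibitor and 26.9% in control cells. The median difference was 53.1 points, against 0 points over all coding genes. A gene without an inhibitor peak cannot be higher in inhibitor cells. Of all coding genes 48.6% held no such peak, and of the 13 NuRD genes 0, so the comparison is partly one of covered with uncovered genes. When only the outer 5 kb with more coverage was taken for each gene, 5 of the 13 were at least 25 points higher, against 33.0% of all coding genes, so this count depended on the window.

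Of 8 other co-regulators that Ikaros binds, 7 were at least 25 points higher in inhibitor cells, against 30.1% of all coding genes, and the median difference was 50.3 points. Suz12, a subunit of the Polycomb complex PRC2, was covered over 99.8% in inhibitor and 17.4% in control cells, the chromatin remodeller Smarca4 over 91.7% in inhibitor and 20.2% in control cells, and the co-repressor Ctbp1 over 72.6% in inhibitor and 4.79% in control cells. The exception was Ctbp2, the relative of Ctbp1, at 0% in inhibitor and 3.19% in control cells. Over the outer 5 kb with more coverage, 5 of the 8 were at least 25 points higher, against 33.0% of all coding genes. All 5 genes of the cereblon ubiquitin ligase, through which thalidomide-like drugs degrade human Ikaros and Aiolos, were at least 25 points higher in inhibitor cells, against the same 30.1%. Rbx1, its RING subunit, was covered over 100% in inhibitor and 19.1% in control cells, the adaptor Ddb1 over 81.8% in inhibitor and 7.78% in control cells, and Crbn itself over 91.8% in inhibitor and 23.4% in control cells. Over the outer 5 kb with more coverage, 4 of these 5 genes were, against 33.0%.

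Of 15 genes that mouse studies link to regulation by Ikaros proteins, 9 were at least 25 points higher in inhibitor cells and 0 in control cells, against 30.1% and 3.07% of all coding genes. The largest differences were at Dtx1, a Notch target, with 95.1% in inhibitor and 17.0% in control cells, Gfi1, a zinc finger repressor, with 100% in inhibitor and 30.6% in control cells, and Dntt, the terminal transferase, with 92.8% in inhibitor and 28.2% in control cells. Il7r, the receptor of the cytokine in the medium, was covered over 100% in inhibitor and 53.2% in control cells, and Il2ra, the CD25 marker of DN3 cells, over 94.5% in inhibitor and 66.8% in control cells, by peaks at q up to 0.05 in both lists. The genes of later T cell stages and of B cell precursors had no coverage by peaks at q up to 0.05 in either list. Cd4 was covered over 0% in inhibitor and 7.69% in control cells, Cd8a and Vpreb1 over 0% in both lists, and Igll1 over 23.2% in inhibitor and 0% in control cells by weak peaks. At the end with more coverage 5 of the 15 genes were at least 25 points higher in inhibitor cells, a share near the 33.0% of all coding genes.

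**Figure D5:**
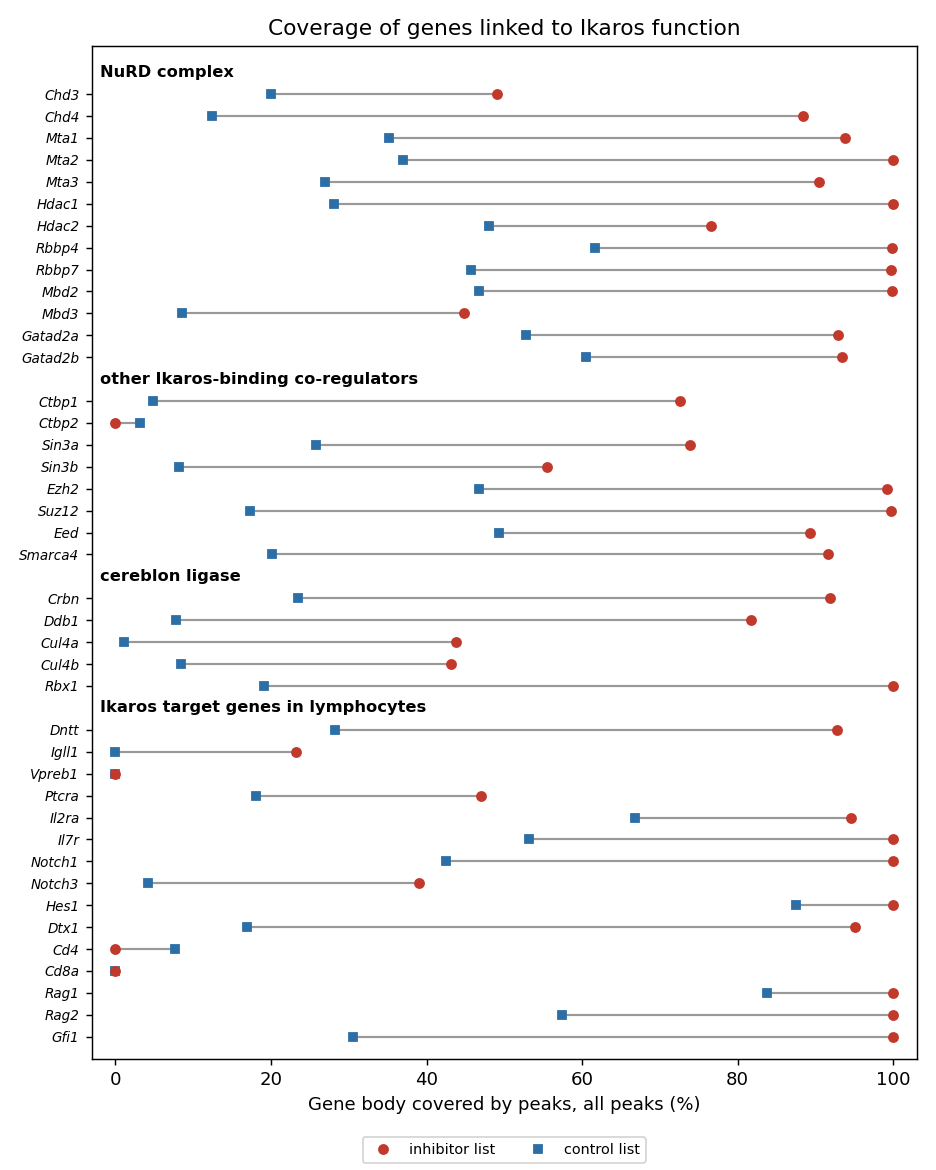
Covered percent of the gene body in the inhibitor list (red circles) and the control list (blue squares) for the NuRD genes, other co-regulators, the cereblon ligase and genes linked to Ikaros regulation. The red circle lies right of the blue square for all 13 NuRD genes, and left of it for Ctbp2 and Cd4 only.

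Among regulatory T cell genes, where Helios and Eos act, Ctla4 was covered over 100% in inhibitor and 89.1% in control cells and Tnfrsf18 over 100% in inhibitor and 57.8% in control cells. Il2rb was covered over 0% in inhibitor and 9.04% in control cells, and Foxp3 held no peak in either list. Peaks at q up to 0.05 alone also covered Ctla4 over 100% in inhibitor and 89.1% in control cells, and Tnfrsf18 over 0% in both. Ikzf2 was above the 50% mark in both lists, which 26.1% of all coding genes reached in inhibitor and 5.47% in control cells. Ikzf4, at 24.2% in inhibitor and 2.23% in control cells, was below it in both. A link between these members and the regulatory T cell genes was not tested.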

How the data were processed

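The authors deposited 1 broad peak list per ChIP library. The submitters' processing notes name BWA, MACS2 2.1.0 and mm10, with no roles. Options of the caller and use of the input were not given in the sources used here. Per the file layout, the deposited columns hold a score (the whole part of 10 times −log10 q), a fold enrichment (a ratio to local background), −log10 p and −log10 q, each a mean over the peak. The lowest deposited −log10 p was 1.00 in both lists.

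Peaks were merged and intersected with RefSeq gene bodies (GRCm38.p6) with Python 3.11.15, pandas 2.3.3, numpy 2.4.6 and scipy 1.17.1, and drawn with matplotlib 3.10.9. A gene at 50% coverage was counted as covered, and differences were counted from 25 percentage points. Wilson intervals treat peaks as independent and cover counting error only. Neighbouring peaks lie at least 1443 bp apart in the inhibitor list and 1527 bp in the control list. Coverage was tested on simulated peaks. The 5 members, the gene lists, and the rules were chosen with earlier results of these data known. Genes named beyond the members were the 2 most like each member, genes sharing its peaks, and up to 3 per list and direction with a difference of at least 25 points; flanking genes, and other list genes given with values, were chosen after the values were seen. One marker gene of the fixed lists is not reported here. Alternatives changed the peak threshold, merging distance, covered share, window and treatment of overlapping genes.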

Additional observations from a re-analysis of the deposited data

How the results depend on the processing

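With 1 library per condition no replicate could be left out. No paired analysis was possible because the result comes from no test. The number of members covered over at least 50% in inhibitor cells was 3 (26.1% of all coding genes). It dropped to 1, Ikzf1, for the strongest peaks of equal covered length (1.22%) and was 2 to 4 under the other alternatives. Among these it was 2 with fold enrichment of at least 3 (10.6%), 2 when 80% of the body was required (14.8%) and 4 when any covered base was enough (51.4%). In control cells it was 2. It was 1 with q of at most 0.05 (1.33% of all coding genes), 1 with −log10 q of at least 5 (0.557%), 1 with fold enrichment of at least 3 (0.461%), 1 for the strongest peaks of equal length (1.33%), 0 when 80% of the body was required (1.49%) and 5 when any covered base was enough (55.3%). The number of members at least 25 points higher in inhibitor cells was 1. It was 3 at q of at most 0.05 (26.3% of all coding genes), 2 at −log10 q of at least 5 (13.2%), 2 at fold of at least 3 (12.9%) and 2 when peaks within 5 kb were merged (29.1%). It was 0 without Ikzf5, which overlaps Pstk. No alternative gave a member at least 25 points higher in control cells. Merging within 1 kb changed nothing, since no peaks lie that close. Merging within 5 kb put Ikzf4 at 38.8 points and Ikzf3 at −20.5 points. Over 8 alternatives the difference ranged from 0 to 28.9 points at Ikzf1, 0 to 77.1 at Ikzf2, −20.5 to 0 at Ikzf3, 0 to 38.8 at Ikzf4 and 0 to 77.3 at Ikzf5. No sign turned, but the stricter thresholds could hardly turn one towards control cells. At least 25 points higher in control cells were 0% of all coding genes at q of at most 0.05. The share was 0.00457% at −log10 q of at least 5 and 0.00914% at fold of at least 3. A difference of 0 also arose where no peak was left in either list. Equal covered length and merging within 5 kb were added after the data had been seen. The cause of these shifts was not tested, except that fewer peaks enter under a stricter threshold. The depth of the libraries is unknown, so an uncovered gene is one without a called peak and not one without the mark.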
